A study of Rattus norvegicus with 58 samples.

Results

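The lipogenic regulators Srebf1, Mlxipl, Lpin1, Thrsp and Pnpla3 were followed across 58 rat liver arrays. They were taken by gene symbol, and each was read from its brightest probe set, with its other probe sets as a check. They are 5 of the 14217 genes named here, and 11 probe sets carry their symbols. The tested animals were 23 glucose-intolerant and 23 glucose-normal heterogeneous stock (HS) rats, which are outbred descendants of several inbred strains. A further 12 arrays came from 6 inbred strains with 2 arrays each, namely BN, ACI, BUF, F344, WKY and M520. Per the labels, all animals were male, aged 17 weeks, housed in pairs with free access to food, and killed by decapitation after an overnight fast. No treatment beyond that fast was recorded here for any group, and every value below is a fasted value. All values are on the log2 scale, where 1 unit is a 2-fold change.

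Srebf1 encodes SREBP-1, a membrane-bound transcription factor that is cut free and, under insulin, drives the genes of fatty acid synthesis. Mlxipl encodes ChREBP, a transcription factor that responds to sugar and drives glycolytic and lipogenic genes together with its partner Mlx. Lpin1 encodes lipin 1, a phosphatidate phosphatase of triglyceride synthesis that in mouse liver also acts with Ppargc1a on genes of fatty acid oxidation and is induced by fasting and glucocorticoids. Thrsp encodes Spot 14, a protein induced by thyroid hormone and carbohydrate that acts with its relative Mid1ip1 on acetyl-CoA carboxylase. Pnpla3 encodes adiponutrin, a lipid droplet protein whose gene is a target of SREBP-1 and ChREBP in mouse and human liver.

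BN liver differed from the mean of the other 5 strains in 2 of these genes, with higher Lpin1 and lower Srebf1. In pairs, BN did not pass against F344 for Lpin1, nor against ACI and M520 for Srebf1. The second Srebf1 probe set did not repeat the call. ACI liver had higher Mlxipl and BUF liver lower Lpin1 than the mean of the other 5 strains. In pairs, ACI passed only against BN and BUF for Mlxipl, and BUF did not pass against ACI, M520 or WKY for Lpin1. The ACI call held in 18 of 22 alternatives and the BUF call in 19 of 23. Between intolerant and normal HS rats no regulator passed the test. Over the 46 HS rats, Srebf1 passed with 5 of 7 chosen enzymes of fat synthesis and glycolysis, the glycolytic Pklr among the 5. By r with Srebf1, these ranked from 3 to 124 among the 14216 other genes. Srebf1 was opposed to Lpin1, a call lost without 2 of the rats or with the second probe sets. Lpin1 had r above 0 with 14 of 16 fasting and glucocorticoid targets. Of 13 clock genes, 6 had r over 0.5 with Thrsp and 3 under -0.5.

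The promoters of the regulators that varied most among rats are shown here because these genes moved with different partners. The windows are the 250 bases before a transcription start in RefSeq's GRCr8 annotation, written 5′ to 3′ on the gene's strand. Capitals mark each CCAAT box (CCAAT) and each GC box (GGGCGG) on either strand. All 5 genes were found there, and Srebf1 has 2 starts, of which the downstream one is where the SREBP-1c form of liver begins. The Srebf1 window lies at chr10:45519011-45519260, that of Lpin1 at chr6:45108943-45109192 and that of Thrsp at chr1:161138965-161139214, all 3 on the minus strand.
Srebf1, downstream start: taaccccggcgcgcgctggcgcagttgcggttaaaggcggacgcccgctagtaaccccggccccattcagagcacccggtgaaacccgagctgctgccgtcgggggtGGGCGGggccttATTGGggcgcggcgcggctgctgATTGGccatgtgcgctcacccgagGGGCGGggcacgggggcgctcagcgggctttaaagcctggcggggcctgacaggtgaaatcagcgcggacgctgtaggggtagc
Lpin1: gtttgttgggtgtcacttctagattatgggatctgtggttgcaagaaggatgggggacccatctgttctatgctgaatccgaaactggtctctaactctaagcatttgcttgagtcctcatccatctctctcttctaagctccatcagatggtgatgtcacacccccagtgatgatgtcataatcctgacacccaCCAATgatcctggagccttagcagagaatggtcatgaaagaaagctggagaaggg
Thrsp: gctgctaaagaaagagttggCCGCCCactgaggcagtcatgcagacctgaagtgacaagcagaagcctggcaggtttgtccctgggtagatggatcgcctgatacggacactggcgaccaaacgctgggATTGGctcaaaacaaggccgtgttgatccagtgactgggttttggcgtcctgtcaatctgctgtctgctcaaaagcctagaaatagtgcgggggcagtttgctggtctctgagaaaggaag
The Srebf1 window held 2 CCAAT boxes and 2 GC boxes, that of Thrsp 1 of each, and that of Lpin1 1 CCAAT box and no GC box. CCAAT occurred in 34% and GGGCGG in 30.5% of the 33469 promoter windows of the annotation. The first window of each of the 5 genes, and both windows of Srebf1, were also searched on both strands for the E-box CACGTG, the sterol element TCACNCCAC, the nuclear receptor element AGGTCA and a palindromic glucocorticoid element, and none was found. Those motifs occurred in 5.59%, 0.974%, 14.1% and 0.012% of all windows. The cyclic AMP element TGACGTCA, in 1.59% of all windows, was found among these windows in that of Pnpla3 alone. A further listed start of Mlxipl was not searched. A match, or its absence, describes only the letters in the window. The array does not separate the 2 Srebf1 starts.

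The labelled tissue was checked first, and 7 of 7 hepatocyte markers measured lay above the array's median on all 58 arrays, among them Alb at a mean of 14.9. Of 5 adipocyte markers, Adipoq, Lep and Plin1 were above the array's median on 0 of 58 arrays and Fabp4 on 1, while Cfd was above it on all 58. Array medians ran from 5.33 to 5.39, and no arrays held identical values. Srebf1, Mlxipl, Lpin1 and Thrsp were above the array's median on 58 of 58 arrays, with means of 9.71, 8.0, 9.23 and 9.71. Pnpla3 averaged 3.66, was above the array's median on 0 of 58 arrays and was brighter than 21.5% of the probe sets. Whether the 2 animals of a strain were raised or processed apart is not stated, so p-values among strains measure only the spread between these arrays, which may be technical.

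**Figure D1:**
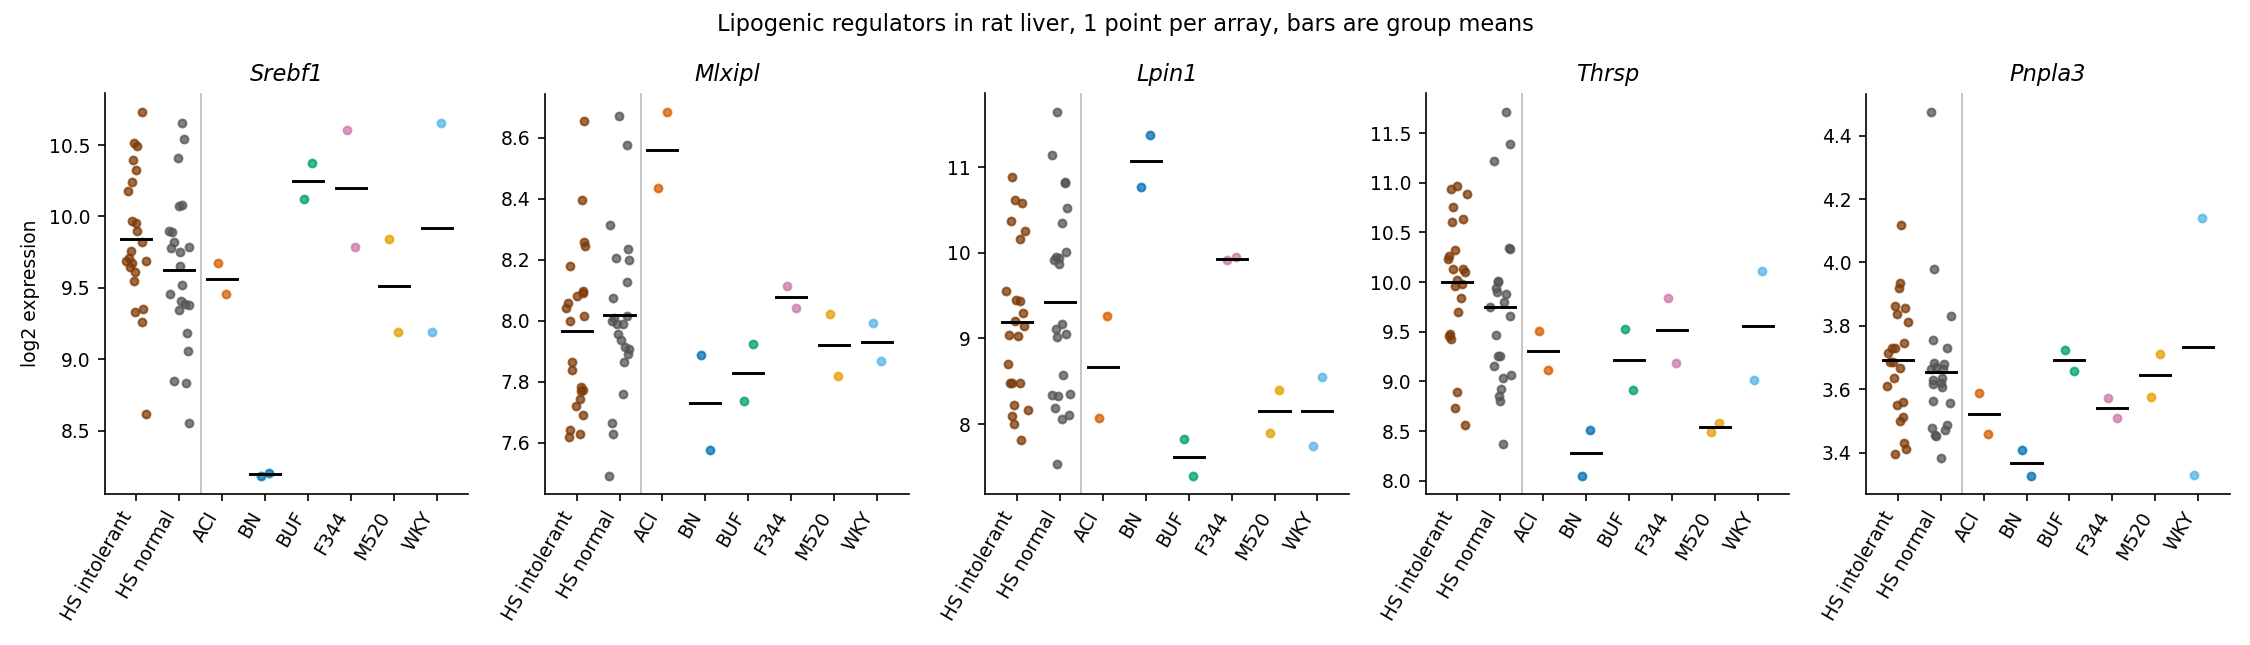
Log2 expression of the 5 regulators on each array (points) with group means (bars), for glucose-intolerant and glucose-normal HS rats and the 6 inbred strains; each panel has its own vertical scale. Both BN arrays of Srebf1, at 8.19 and 8.20, lie under all other arrays, while both BN arrays of Lpin1, at 10.77 and 11.38, lie above all other inbred arrays.

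Srebf1 was lowest in BN liver. The 2 BN arrays read 8.19 and 8.20, against 10.13 and 10.37 in BUF, 9.79 and 10.61 in F344, 9.19 and 10.65 in WKY, 9.46 and 9.67 in ACI, and 9.19 and 9.84 in M520. Both BN arrays lay under all 10 other inbred arrays, and the BN mean of 8.19 lay under all 46 HS rats. BN differed from the mean of the other 5 strains by -1.70 ± 0.31 (SE), which is 3.24-fold lower (adjusted p = 0.0080, limma). Against single strains, BN was lower than BUF by 2.06, than F344 by 2.0 and than WKY by 1.73 on the log2 scale (adjusted p = 0.0111, 0.0164 and 0.0347, limma). The pairs of BN with M520 and with ACI missed the threshold (adjusted p = 0.083 and 0.095, limma), and no other pair passed. The WKY arrays were 1.46 apart, the widest gap within a strain for this gene. The second Srebf1 probe set, which averaged 7.62 and followed the first with r = 0.908 over the 46 HS rats, gave a difference for BN of -0.88 (adjusted p = 0.205, limma) and so did not repeat the call. Without BN replicate 1 or 2 the difference stayed at -1.69 or -1.70 but missed the threshold (adjusted p = 0.113 and 0.086, limma).

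Mlxipl was highest in ACI liver and varied least among the 4 well-detected regulators. The ACI arrays read 8.43 and 8.69, against 8.04 and 8.11 in F344, 7.87 and 7.99 in WKY, 7.82 and 8.02 in M520, 7.74 and 7.92 in BUF, and 7.58 and 7.89 in BN. Both ACI arrays lay above the other 10, which all lay between 7.58 and 8.11. ACI exceeded the mean of the other 5 strains by 0.66 ± 0.12 (SE), or 1.58-fold (adjusted p = 0.0124, limma). ACI was higher than BN by 0.83 and than BUF by 0.73 (adjusted p = 0.0111 and 0.0193, limma), and no other pair passed. Leaving out ACI replicate 1 gave 0.79 and leaving out ACI replicate 2 gave 0.54, and neither passed (adjusted p = 0.084 and 0.244, limma). The ACI mean lay above 43 of 46 HS rats. A single probe set measured Mlxipl.

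Lpin1 had the widest range, 3.46 between strain means, or 11-fold. The BN arrays read 10.77 and 11.38, those of F344 9.91 and 9.95, of ACI 8.08 and 9.26, of M520 7.90 and 8.40, of WKY 7.75 and 8.55, and of BUF 7.40 and 7.83. The arrays of BN and F344 lay above those of the other 4 strains, whose neighbours in this order overlapped. BN exceeded the mean of the other 5 strains by 2.57 ± 0.28 (SE), or 5.96-fold (95% confidence interval 3.87 to 9.18; adjusted p = 0.000297, limma). BUF differed from the other 5 by -1.58 ± 0.28 (SE), 2.99-fold lower (adjusted p = 0.0107, limma). The second Lpin1 probe set, which followed the first with r = 0.978 over the HS rats, gave 1.97 for BN and -1.21 for BUF (adjusted p = 0.000370 and 0.0124, limma). F344 exceeded the others by 1.20, which missed the threshold (adjusted p = 0.0664, limma). In pairs, BN was above ACI, BUF, M520 and WKY by 2.41 to 3.46, and F344 above BUF, M520 and WKY by 1.78 to 2.32, with 7 of 15 pairs past the threshold. BN and F344 were 1.14 apart and did not pass (adjusted p = 0.142, limma). The BN call held when any of the 12 arrays was left out, with differences from 2.27 to 2.88, whereas that of BUF was lost without BUF replicate 2 (-1.36, adjusted p = 0.249, limma).

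Thrsp followed the order WKY, F344, ACI, BUF, M520 and BN, and none of the 15 pairs passed. Its arrays read 9.01 and 10.11 in WKY, 9.19 and 9.84 in F344, 9.11 and 9.5 in ACI, 8.91 and 9.53 in BUF, 8.49 and 8.58 in M520, and 8.05 and 8.52 in BN. Neighbours in this order overlapped, apart from BUF and M520. The BN mean of 8.28 lay under all 46 HS rats, and that of M520 above only 1 of them. The difference of BN from the other 5 strains was -0.94 ± 0.26 (SE) and missed the threshold (adjusted p = 0.0696, limma). The 2 other Thrsp probe sets gave -1.36 and -1.18 for BN (adjusted p = 0.112 and 0.124, limma). The call was gained when WKY replicate 1, WKY replicate 2 or F344 replicate 2 was left out (adjusted p = 0.013, 0.044 and 0.049, limma).

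Pnpla3 gave no strain difference, with arrays from 3.33 to 4.14, and the 2 WKY arrays alone read 3.33 and 4.14. None of its 15 pairs and none of its 6 strain contrasts passed. Its 3 probe sets averaged 3.66, 3.64 and 3.32 and did not follow each other over the HS rats (r = -0.06, 0.02 and 0.08).

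Across the 6 strains, 3 of the 5 regulators passed the moderated F test: Lpin1 (adjusted p = 0.000557), Mlxipl (adjusted p = 0.0283) and Srebf1 (adjusted p = 0.0307, all limma). Thrsp missed it (adjusted p = 0.0753) and so did Pnpla3 (adjusted p = 0.682, limma). By comparison, 13.8% of all 14217 genes passed, and 17.9% of the 9362 genes brighter than the median probe set. Strain by strain, 4 of 30 contrasts of a regulator passed, against 4.69% of such contrasts over all genes. Of the 75 pairs, 12 passed, against 4.53% over all genes. The count of regulators past the F test was 1 without ACI replicate 1, without ACI replicate 2 or without BN replicate 2, and 4 without either WKY array.

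**Figure D2:**
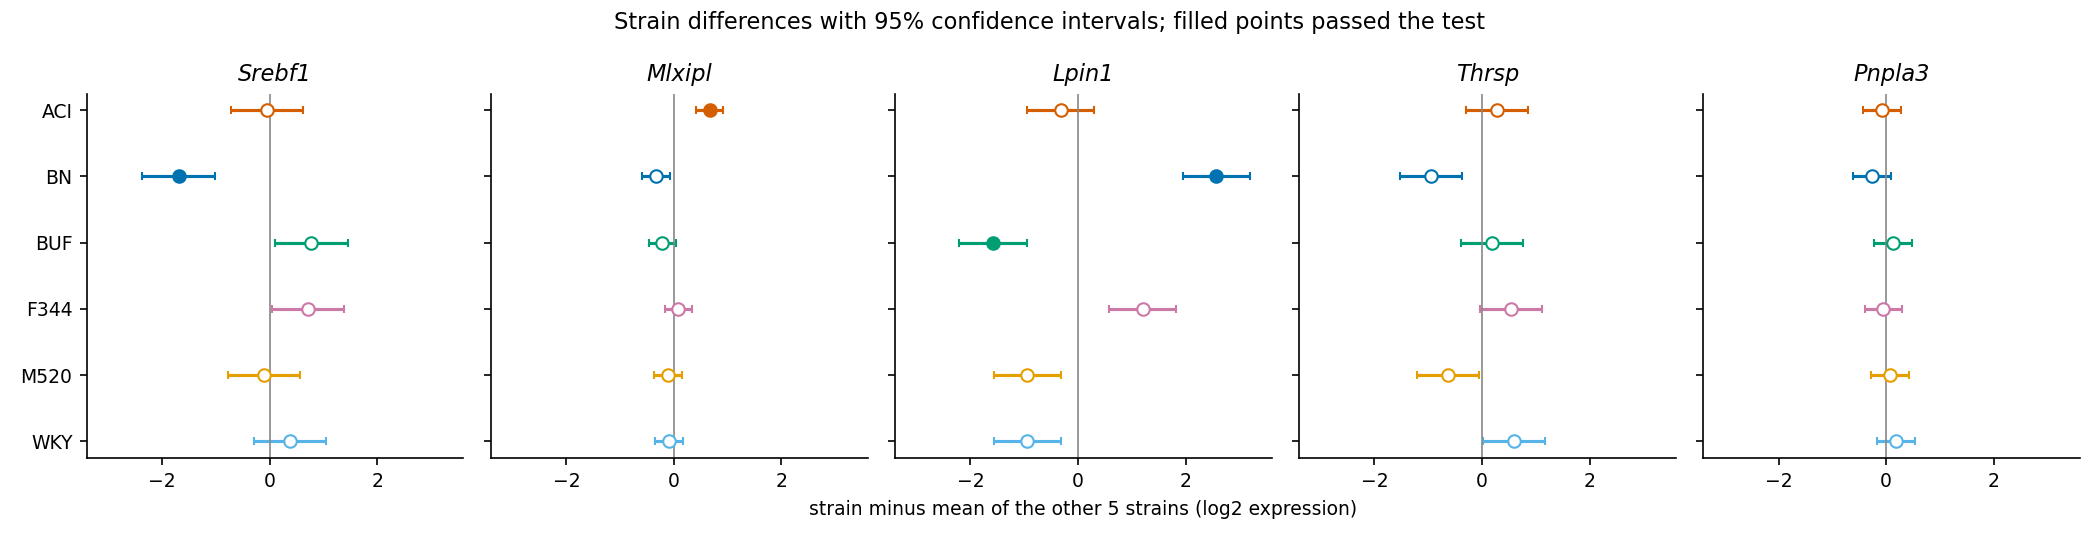
Difference of each strain from the mean of the other 5 (horizontal axis, log2 expression) with its 95% confidence interval, for the 5 regulators; filled points passed the test over all probe sets. The filled points are BN for Srebf1 (-1.70), ACI for Mlxipl (0.66), and BN (2.57) and BUF (-1.58) for Lpin1.

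The genes these regulators act on were read in the strains with a called regulator. In BN liver, 5 of 17 measured lipogenic and triglyceride synthesis enzymes fell and 0 rose, against 2.39% lower and 3.36% higher among all genes, and their median difference was -0.35, against 0.01 over all genes. Scd, the stearoyl-CoA desaturase, was at 4.79 in BN, against 9.39 in the other strains, a difference of -4.60 ± 0.35 (SE; adjusted p = 1.91e-05, limma). The fatty acid desaturases Fads1 (-1.26) and Fads2 (-0.71) and the acetyl-CoA carboxylase Acaca (-0.88) also passed. Fasn, the fatty acid synthase (-1.34), and Acly, the ATP citrate lyase (-0.89), did not (adjusted p = 0.0691 and 0.0963, limma). The count of 5 was 2 without BN replicate 1 and 1 without BN replicate 2. The call of Scd held in all 22 alternatives.

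ChREBP targets of sugar use were split in BN, where 3.36% of all genes were called higher and 2.39% lower. Of 11 measured, Tkfc, the triokinase of fructose use (-1.11), and Pklr, the liver pyruvate kinase (-0.85), fell, while the regulator Klf10 (1.20) and the arrestin relative Arrdc4 (0.47) rose. Without BN replicate 1 the counts were 1 higher and 1 lower, and without BN replicate 2 they were 0 higher and 1 lower. None of 12 measured genes of SREBP processing and sterol synthesis passed, the escort protein Scap (0.24), the retention proteins Insig1 (0.49) and Insig2 (0.31) and Srebf2 (-0.46) included. Among the 10 genes of LXR and its targets, only the sterol transporter Abcg5 rose (0.87), a call lost without either BN array, and the nuclear receptor Nr1h3 was at -0.28 (adjusted p = 0.338, limma). Mid1ip1, the relative of Thrsp, fell in BN (-1.25, adjusted p = 0.0156, limma), as did Dio1, the deiodinase that activates thyroid hormone (-1.54, adjusted p = 3.31e-05, limma), out of 6 genes of that list. Without BN replicate 1, 1 of these calls was left. Beside Lpin1, its relative Lpin2 rose by a smaller amount (0.52, adjusted p = 0.0493, limma), Lpin3 was at 0.00, Ppargc1a was at 0.37 and did not pass, and the bile acid receptor Nr1h4 fell (-0.64). The calls of Lpin2 and Nr1h4 were lost without either BN array, and that of Lpin2 in 13 of 22 alternatives. Of 18 lipid droplet genes, Cidea (1.36) and the lysophospholipase Pnpla7 (0.60) rose, a count that was 1 without either BN array, with the call of Pnpla7 lost when any of 8 of the 12 arrays was left out. The lipase Pnpla2 (0.46) and its activator Abhd5 (-0.29) did not pass.

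In BN, 3.36% of all genes were called higher and 2.39% lower, with a median difference of 0.01. Of 16 measured fasting and glucocorticoid targets, 6 rose and 0 fell in BN, with a median of 0.63. They included the metallothionein Mt2A (2.32), the insulin-repressed Igfbp1 (2.22), the glucocorticoid receptor co-chaperone Fkbp5 (1.97) and the serine dehydratase Sds (1.84). The count was 2 without BN replicate 1 and 4 without BN replicate 2. The mean level of the 16 targets per array was 9.72 and 9.89 in BN and 8.86 and 9.74 in WKY. It ran from 8.71 to 9.18 on the other inbred arrays. The calls of Sds, Mt2A, Igfbp1 and Fkbp5 were lost in 9, 4, 2 and 2 of 22 alternatives. Of 13 clock genes, 3 rose and 3 fell in BN, among them Per3 (1.48), Nr1d1 (1.45) and Nr1d2 (1.34), against Npas2 (-1.16). Without BN replicate 2, 1 clock gene rose and 0 fell. No source states the hour of killing, so clock time and strain cannot be told apart.

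Endothelial and Kupffer cell markers had higher means in BN, where 3.36% of all genes were called higher and 2.39% lower. Of the other marker lists, 0 of 9 stellate, 0 of 5 adipocyte and 0 of 6 lymphocyte markers passed. Of 5 bile duct markers, the dim Cftr rose (0.52), and 3 had higher and 2 lower means. Of 6 measured endothelial markers, 3 rose (Emcn 1.08, Stab2 0.72 and Lyve1 0.65), and 6 of 6 had higher means in BN. The count of 3 was 1 without either BN array. Their mean level per array was 8.69 and 8.86 in BN, against 7.79 to 8.55 on the 10 other inbred arrays. Of 8 Kupffer cell markers, 2 rose (Cd163 0.90 and Clec4f 0.88), and 8 of 8 had higher means. The count of 2 was 0 without BN replicate 1 and 4 without BN replicate 2. Their mean level was 8.88 and 9.59 in BN, against 8.16 to 9.22 on the other inbred arrays. No hepatocyte marker of 7 passed, with a median difference of 0.03. In bulk tissue, fewer cells of a type and less RNA per cell cannot be told apart, and the part of these markers in the differences above was not tested.

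**Figure D3:**
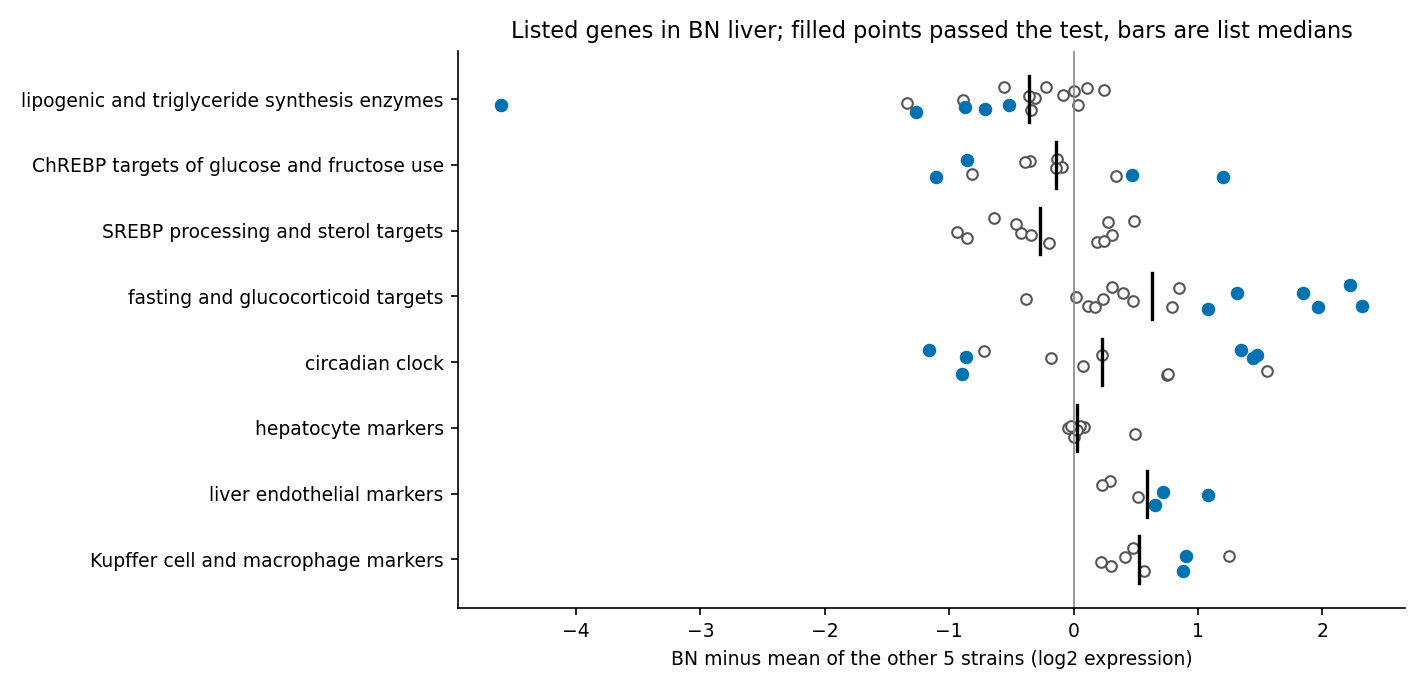
Difference of BN from the mean of the other 5 strains (horizontal axis, log2 expression) for each measured gene of 8 lists (rows); filled points passed the test and bars are list medians. The lipogenic enzymes lie mostly left of 0 with a median of -0.35 and Scd at -4.60, and the fasting and glucocorticoid targets mostly right of 0 with a median of 0.63.

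In ACI, whose Mlxipl was above the mean of the other 5 strains, 0 of 11 measured ChREBP targets passed, with a median of -0.04. Of the 17 lipogenic enzymes, only the malic enzyme Me1 rose (0.62, adjusted p = 0.0429, limma), against 1.46% higher and 0.985% lower among all genes, and this call was lost when any of 7 of the 12 arrays was left out, each ACI array included. The lipase inhibitor G0s2 fell (-0.85), and of the clock genes Nr1d1 (-2.49) and Nr1d2 (-0.76) fell and Cry1 (1.0) rose. Without either ACI array, G0s2 was not called and the clock genes had 0 higher and 1 lower call. No marker of another cell type passed in ACI, and Mlx, the partner of ChREBP, did not differ among strains (F test, adjusted p = 0.213, limma).

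BUF had Lpin1 under the mean of the other 5 strains, but did not pass in pairs with ACI, M520 or WKY. In BUF, Ppargc1a (-1.0) and Ppara (-0.85), which act with lipin 1 in mouse liver, fell. Both were dim, at 4.28 and 4.40 in BUF, against 5.28 and 5.25 in the other strains. Of the 16 fasting and glucocorticoid targets, the carnitine palmitoyltransferase Cpt1a fell (-0.61), against 3.86% lower and 3.0% higher among all genes. Among the lipogenic enzymes, Scd (1.35) and Agpat2 (0.44) rose and Me1 (-1.11) fell, and among ChREBP targets Tkfc (0.84), Khk (0.66) and Gckr (0.48) rose. The call of Scd (adjusted p = 0.0480, limma) was lost in 15 of 22 alternatives, that of Cpt1a in 13, and those of Agpat2 and Gckr in 10 each. Those of Tkfc and Khk were lost in 3 each and that of Me1 in 0. Endothelial Lyve1 (-0.81) and Emcn (-0.55), Kupffer Csf1r (-0.76) and Clec4f (-0.70), and stellate Col3a1 (-1.22) and Lrat (-0.96) also fell in BUF. Without BUF replicate 2, the only calls left in these lists were 1 higher and 1 lower lipogenic enzyme. Without BUF replicate 1, 0 Kupffer markers, 0 fasting and glucocorticoid targets, 1 endothelial marker and 1 partner of lipin 1 were called lower. The part of the marker genes in the Lpin1 difference was not tested.

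The HS comparison asked whether these regulators differ with glucose tolerance. No regulator passed, and neither did any other of the 14217 genes (0.0% called, limma, with 2483 of 31042 probe sets at an unadjusted p under 0.05 and a smallest adjusted p of 0.137). Srebf1 ran from 8.62 over a median of 9.76 to 10.73 in intolerant rats, against 8.55, 9.65 and 10.65 in normal rats. The difference was 0.22 (95% confidence interval -0.07 to 0.51; adjusted p = 0.706, limma). Lpin1 ran from 7.82 over 9.15 to 10.89 in intolerant rats, against 7.53, 9.17 and 11.65 in normal rats. The difference was -0.23 (-0.82 to 0.36; adjusted p = 0.869, limma). For Thrsp the values were 8.56, 10.11 and 10.96 in intolerant rats, against 8.37, 9.75 and 11.72 in normal rats, a difference of 0.26 (-0.18 to 0.69; adjusted p = 0.786, limma). Mlxipl ran over 7.62, 8.0 and 8.66 in intolerant rats, against 7.49, 7.99 and 8.67 in normal rats, with a difference of -0.05 (-0.21 to 0.10; adjusted p = 0.889, limma). Pnpla3 ran over 3.40, 3.69 and 4.12 in intolerant rats, against 3.38, 3.63 and 4.48 in normal rats, with a difference of 0.04 (-0.08 to 0.16; adjusted p = 0.903, limma). The groups overlapped throughout, since for 4 of the regulators all 23 intolerant rats, and for Srebf1 22 of them, lay within the range of the normal rats. The spread did not pass a permutation test either, with adjusted p from 0.900 to 0.938.

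No gene of the target lists was called, and the direction of the means differed by list. Means were higher in intolerant rats for 15 of the 17 lipogenic enzymes, whose differences had a median of 0.12, against -0.01 over all genes. Elovl5, a fatty acid elongase, averaged 12.15 in intolerant and 11.88 in normal rats (difference 0.27, adjusted p = 0.237, limma). Scd averaged 10.95 in intolerant and 10.01 in normal rats (difference 0.94, adjusted p = 0.562, limma). Of the 11 ChREBP targets, 10 had higher means, with Tkfc at 0.35 and Pklr at 0.29 (adjusted p = 0.391 and 0.433, limma). Of 12 genes of SREBP processing and sterol synthesis, 4 had higher and 8 lower means (median -0.02), and of 10 genes of LXR and its targets 3 had higher and 7 lower (median -0.03). Pnpla7 was at -0.22 and Igfbp1 at -0.38 (adjusted p = 0.332 and 0.659, limma). All 6 endothelial and 7 of 8 Kupffer markers had lower means in intolerant rats, with medians of -0.12 and -0.08. The part of these markers in the shift of the lists was not tested.

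The regulators ranged widely among single HS rats. Between the lowest and the highest of the 46 rats, Lpin1 spanned 4.11, or 17.3-fold, Thrsp 3.34 (10.1-fold), Srebf1 2.18 (4.53-fold) and Mlxipl 1.18 (2.27-fold). The SD over HS rats was 1.03 for Lpin1, larger than that of 99.7% of genes, 0.77 for Thrsp (99.1%), 0.52 for Srebf1 (97.2%) and 0.27 for Mlxipl (84.3%), against a median of 0.17 over all genes.

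Correlations were computed for 45 pairs, the 10 pairs of regulators and the 35 pairs of a regulator with Fasn, Acly, Acaca, Scd, Elovl6, Me1 and Pklr, and 16 passed a permutation test with adjusted p under 0.05. Srebf1 and Lpin1 were opposed (Pearson r = -0.45, p = 0.00193, adjusted p = 0.00835; Spearman rho = -0.41, p = 0.00469, adjusted p = 0.0211; permutation tests, 46 rats). The sign was the same in intolerant rats (r = -0.36) and in normal rats (r = -0.49). Without the 2 rats farthest from the Srebf1 median r was -0.33 and the call was lost (adjusted permutation p = 0.101). With the second probe sets r was -0.27 and the call was lost too (adjusted permutation p = 0.156). BN, with the lowest Srebf1 and the highest Lpin1 of the strains, extended the plot of Lpin1 against Srebf1 at that end, and F344 was high in both.

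**Figure D4:**
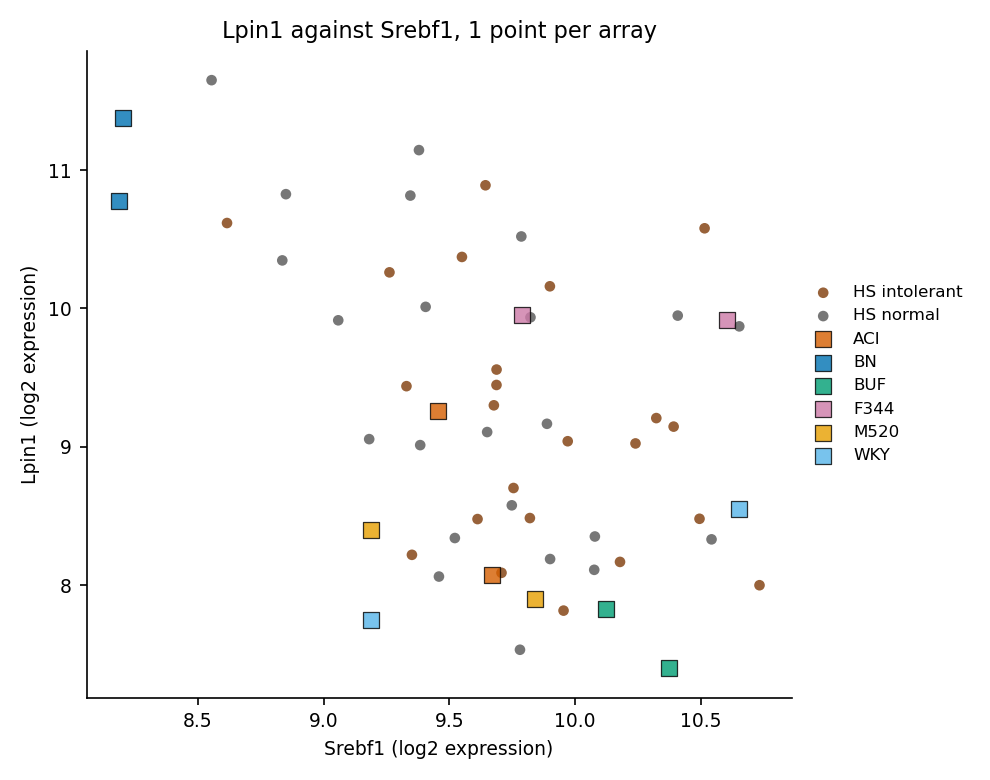
Lpin1 (vertical axis) against Srebf1 (horizontal axis), both as log2 expression, for the 46 HS rats (circles) and the 12 inbred arrays (squares). HS rats with more Srebf1 tended to have less Lpin1 (r = -0.45). The 2 BN squares lie at Srebf1 of 8.19 and 8.20 with Lpin1 of 10.77 and 11.38.

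Srebf1 passed with Thrsp (r = 0.38, p = 0.00887, adjusted p = 0.0284; rho = 0.38, p = 0.0105, adjusted p = 0.0394; permutation tests). Without the 2 rats farthest from the Srebf1 median r was 0.39 and just missed the threshold (adjusted permutation p = 0.0504). The pairs of Pnpla3 with Srebf1 (r = 0.36) and with Thrsp (r = 0.38) also passed (adjusted permutation p = 0.0392 and 0.0284), but had the opposite sign with the second probe sets of both genes (r = -0.35 and -0.29). Mlxipl passed with no other regulator, its closest being Lpin1 at r = 0.21, and Lpin1 with Thrsp was at r = 0.29 (adjusted permutation p = 0.246 and 0.0966).

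Of the 7 enzymes, Pklr belongs to glycolysis and was listed above among the ChREBP targets, not among the lipogenic enzymes. Calls with these enzymes were made for Srebf1, Thrsp and Pnpla3, and whether regulators differ in this was not tested. Srebf1 passed with 5 of 7 enzymes: Acaca (r = 0.66), Pklr (0.61), Fasn (0.59), Acly (0.54) and Scd (0.45), with adjusted permutation p from 0.000450 to 0.00835. Spearman's rho for these ran from 0.44 to 0.66, all past the threshold (adjusted permutation p from 0.000450 to 0.0122). Within intolerant rats their r ran from 0.38 to 0.51 and none passed (adjusted permutation p from 0.234 to 0.248). Within normal rats all but Scd (r = 0.41, adjusted permutation p = 0.135) passed, with r from 0.60 to 0.74. Thrsp passed with Acly (r = 0.54), the elongase Elovl6 (0.54), Pklr (0.47), Fasn (0.46) and Acaca (0.45), with adjusted permutation p from 0.00105 to 0.00835. By Spearman's rho, Acaca missed the threshold (rho = 0.36, adjusted permutation p = 0.0521) and Scd passed with Thrsp (rho = 0.40, adjusted permutation p = 0.0223). Without the 2 rats farthest from the Thrsp median, Fasn and Acaca lost the call with Thrsp (adjusted permutation p = 0.0738 and 0.101), and Fasn also with the second Thrsp probe set (0.0657). With Thrsp, no enzyme passed within intolerant rats, and only Acly and Elovl6 passed within normal rats. Elovl6 did not pass with Srebf1 (r = 0.21). Among the 14216 other genes, Acaca, Pklr, Fasn, Acly and Scd ranked 3, 8, 15, 32 and 124 by r with Srebf1. Elovl6 and Me1 ranked 1750 and 2918. By r with Thrsp, Acly, Elovl6, Pklr, Fasn and Acaca ranked 65, 67, 197, 228 and 245, and Scd and Me1 883 and 980. Pairs with genes outside the 45 were not tested, so no share of all genes can be given. Whether the r of an enzyme with Srebf1 differs from that with Thrsp was not tested. Mlxipl and Lpin1 each passed with 0 of 7 enzymes over all rats, where Mlxipl with Acaca had r = 0.30 (permutation p = 0.0472, adjusted p = 0.0924). Within intolerant rats, Mlxipl had r = -0.02 with Acaca and -0.12 with Fasn. Within normal rats, it had r = 0.62 with Acaca, which passed (adjusted permutation p = 0.0195), and 0.51 with Fasn, which did not (0.0519). The difference between the groups was not tested. Pnpla3 passed with Acly (r = 0.41) and Acaca (r = 0.39), both with the opposite sign on its second probe set (r = -0.17 each).

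**Figure D5:**
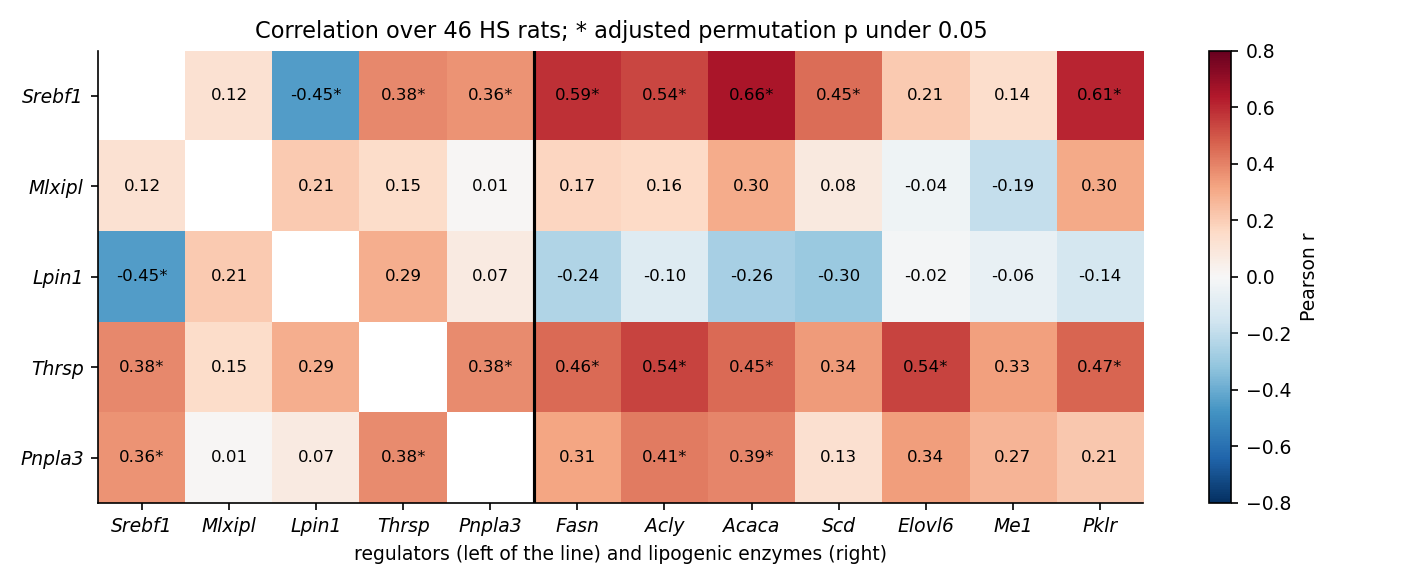
Pearson r over 46 HS rats for the 5 regulators (rows) with each other and with 7 enzymes (columns, right of the line). The enzymes are those of fat synthesis and the glycolytic Pklr. An asterisk marks an adjusted permutation p under 0.05. The rows of Srebf1 and Thrsp are positive across the enzymes, up to 0.66 and 0.54, and the row of Lpin1 is negative throughout them, with no asterisk.

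For each regulator, the genes most like it over the 46 HS rats were then listed by Pearson r among the 14216 other genes. These values were used to choose the genes and are given as a description, with no test. All 46 points share the fast and the array type, and the median absolute r over all genes was 0.13 for Srebf1, 0.14 for Mlxipl, 0.12 for Lpin1 and 0.16 for Thrsp.

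The gene most like Srebf1 was Mid1ip1 (r = 0.74, rho = 0.76), the relative of Thrsp that promotes the joining of acetyl-CoA carboxylase into filaments. It was followed by Hsd11b2 (0.68), the enzyme that inactivates glucocorticoids, Acaca (0.66), the glycine decarboxylase Gldc (0.65) and Angptl8 (0.64), a secreted inhibitor of lipoprotein lipase. The most opposed were the mitochondrial carrier Ucp2 (-0.67) and the lysosomal phospholipase Pla2g15 (-0.66). Of the 17 lipogenic enzymes, 16 had r above 0, with a median of 0.24, against -0.02 over all genes. Among the fasting and glucocorticoid targets, 14 of 16 had r below 0, with a median of -0.23. The lowest was Igfbp1, at -0.63, named after its value was seen. All 8 Kupffer markers (median -0.41) and all 6 endothelial markers (median -0.26) also had r below 0 with Srebf1. The part of these markers in the correlations of Srebf1 was not tested.

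The gene most like Lpin1 was the alkaline ceramidase Acer2 (r = 0.86, rho = 0.84), next to Fkbp5 (0.85), the transcription factor Foxo3 (0.85), Cdc42ep4 (0.84) and the interleukin 6 receptor Il6r (0.83). Palmd (-0.80) and the stress regulator Nfe2l2 (-0.79) were the most opposed. With Lpin1, 289 genes had an absolute r over 0.5, against 144 for Srebf1, 328 for Thrsp and 58 for Mlxipl. Of the 16 fasting and glucocorticoid targets, 14 had r above 0, with a median of 0.28, against 0.00 over all genes. Of the Kupffer markers, 7 of 8 had r above 0 with Lpin1 (median 0.20), as did 4 of 6 endothelial markers (median 0.15), and their part in these correlations was not tested. Among the fasting and glucocorticoid targets, those over 0.5 were Fkbp5, Per1 (0.70), Tsc22d3 (0.67), the tyrosine aminotransferase Tat (0.62) and Igfbp1 (0.57). These were named after their values were seen. The exception at the other end was Pdk4, the pyruvate dehydrogenase kinase, at -0.47. Of 18 lipid droplet genes, 9 had r above and 9 below 0 with Lpin1 (median 0.01). The highest were the droplet protein Cidec (0.66) and the lipase Pnpla2 (0.59), which had r = -0.57 with Srebf1, both named after their values were seen. Of the 17 lipogenic enzymes, 13 had r below 0 with Lpin1, with a median of -0.10.

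The gene most like Thrsp was Bhlhe40 (r = 0.76, rho = 0.75), a repressor of the clock, followed by Bri3 (0.74), Dbp (0.71), a clock-driven transcription factor, Ttc7b (0.71) and Jade1 (0.67). The taurine transporter Slc6a6 (-0.72) and Wdfy2 (-0.71) were the most opposed. Of 13 clock genes, 6 had r over 0.5 and 3 under -0.5. After Dbp, these were Per3 (0.60), Per2 (0.58), Tef (0.58), Bhlhe41 (0.56) and Hlf (0.51) on one side, and the activators Npas2 (-0.68), Clock (-0.67) and Bmal1 (-0.55) on the other, named after their values were seen. With Srebf1 and with Mlxipl, 0 of 13 clock genes had an absolute r over 0.5, and with Lpin1 1 did (Nfil3, -0.55). Thrsp also had r = 0.65 with the glucose transporter Slc2a2. All 8 Kupffer markers had r below 0 with Thrsp (median -0.16), and their part in its correlations was not tested. Its absolute r with the first residual component of the HS arrays, which held 18% of the variance, was 0.41, the highest of the 5 regulators, and the part of that component in these values was not tested. With the component removed, all 5 of these genes were still among the 50 most like Thrsp.

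The gene most like Mlxipl was Bcl7b (r = 0.72, rho = 0.74), a chromatin subunit gene that lies on the same chromosome with 1 gene, Tbl2, between them in the GRCr8 annotation. The next neighbour on that side, Baz1b, stood at rank 79 of 14216 with r = 0.48, and Tbl2 itself at rank 3576 with r = 0.16. Bcl7b had r = 0.75 in intolerant and 0.70 in normal rats. Among strains it did not follow Mlxipl, since ACI differed from the others by 0.06 in Bcl7b (adjusted p = 0.831, limma). The next most alike were Calu (0.61), Ppm1f (0.59), Nrdc (0.59) and Plcg1 (0.58), and the most opposed Nap1l5 (-0.59) and Tcf21 (-0.58). Of the 11 ChREBP targets, 8 had r above 0 with Mlxipl, with a median of 0.17, against 0.02 over all genes, and 0 had an absolute r over 0.5.

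The genes most like Pnpla3 were Fgf5 (r = 0.59), Lama3 (0.51), Cox11 (0.49), Ccn4 (0.49) and Ghsr (0.49), and the most opposed Pold2 (-0.66) and Mageh1 (-0.53). Without the 2 rats farthest from the Pnpla3 median, Fgf5 was at 0.37 and Mageh1 at -0.17. Only 5 genes had an absolute r over 0.5, and Fgf5, Ccn4 and Ghsr were themselves dim, at means of 3.9, 3.64 and 4.19.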

How the data were processed

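Liver RNA from 58 rats, all male, was amplified over 2 cycles and put on Affymetrix arrays, per the labels' protocols. In the table the authors deposited, log2 values are given for 31042 probe sets and run from 1.86 to 15.0. The submitters' processing notes name Partek, and the sources used here do not give the normalization. Groups came from sample titles, since the description of intolerant rats reads ambiguously. Symbols came from the platform annotation and were updated through GRCr8 (14167 of 14217 matched). Of the probe sets, 20826 had 1 symbol, 436 several and 9780 none, and the last kinds were tested but not named.

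Tests used R 4.3.3 and limma 3.58.1 (lmFit, eBayes), two-sided, with Benjamini-Hochberg adjustment over the 31042 probe sets and a threshold of 0.05, on 46 HS arrays for glucose and 12 inbred arrays for strains. Correlations used two-sided permutation tests with 100000 resamples, adjusted over 45 pairs. On simulated data of 31042 probe sets, the glucose test recovered 92% of shifts of 0.5, and the BN contrast 28% of shifts of 0.5, 84% of 1 and 100% of 2. The shifted probe sets were drawn at random from all, each with its own residual spread. Over HS rats the SD was 1.03 for Lpin1, 0.77 for Thrsp and 0.52 for Srebf1, against a median of 0.17 over all genes. The 92% therefore does not give the power for these regulators. Arrays have no read depth, and their number limits the precision. No batch is named by the labels, so none could be tested. Alternatives covered normalization, filters, variance models, array weights, hidden variation, other probe sets, samples in the fit and left-out arrays.

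The regulators, the gene lists and the rule for named genes were chosen with earlier results of these data known. Named were the regulators, the 5 genes of highest and 2 of lowest r with each, the 7 enzymes of the correlations, and direct regulators and relatives. Also named were the 2 genes of smallest p per list for glucose, and up to 4 called genes per list for each strain with a called regulator.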

Additional observations from a re-analysis of the deposited data

How the results depend on the processing

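The BN call of Lpin1 held in 23 of 23 alternatives, other probe sets included. Those of Srebf1 in BN and Lpin1 in BUF held in 19 of 23, and that of Mlxipl in ACI in 18 of 22. The cause was not tested where none is named. Without variance moderation, which leaves each probe set its own spread, the F test called 1036 probe sets (3700 with it) and 0 regulators (3), BN 583 (1454), ACI 172 (752) and BUF 285 (1789), with 1 strain contrast of a regulator (4) and 2 pairs (12). One probe set per gene, with fewer tested, gave 2241 by F, 923 for BN and 364 for ACI. Array weights gave 12 for glucose (0), 2673 for ACI and 538 for BUF. All 58 arrays in one fit gave 960 for BN, 264 for ACI, 2 strain contrasts and 3 pairs. For glucose, quantile normalization gave 1 and the first residual component as covariate 185, none of them a regulator. Leaving out 1 array gave 2130 to 5945 by F, 498 to 1676 for BN, 148 to 1452 for ACI, 229 to 4255 for BUF, 1 to 4 regulators by F, 3 to 7 strain contrasts and 8 to 17 pairs. Of the 4 correlations of regulators, 2 passed by Spearman's rho, 0 within intolerant rats, 1 within normal rats (each with fewer rats), 0 without the 2 farthest rats and 1 with the second probe sets. With the second probe sets of both genes, signs turned for Pnpla3 with Srebf1 (-0.35), Thrsp (-0.29) and Mlxipl (-0.13), and with its own second probe set for Acly (-0.17) and Acaca (-0.17). Uncalled correlations turned for Mlxipl with Pnpla3 by rho (-0.19) and within intolerant rats (-0.12), with Srebf1 within intolerant rats (-0.046) and with Lpin1 within normal rats (-0.020). Leaving out 1 array, uncalled differences that turned ran for ACI from -0.91 to 0.27 in Lpin1, -0.15 to 0.0090 in Pnpla3 and -0.20 to 0.10 in Srebf1, for BUF from -0.13 to 0.49 in Thrsp, for F344 from -0.13 to 0.029 in Pnpla3, for M520 from -0.0091 to 0.15 in Pnpla3 and -0.44 to 0.22 in Srebf1, and for WKY from -0.22 to 0.59 in Pnpla3 and -0.36 to 1.11 in Srebf1. On other probe sets they turned for BUF in Thrsp (-0.27 and -0.0044) and, in Pnpla3, for F344 (0.091 and 0.067), M520 (-0.13) and glucose (-0.033). What a replicate number marks is not stated. Correlations of deviations by replicate number ran from -0.15 to 0.42 over 15 strain pairs (median -0.058), with 3 over 0.1. Whether the numbers pair the arrays is therefore not settled. With them as a replicate block the F test called 3698 probe sets and 3 regulators, with 6 strain contrasts and 11 pairs. The 2 gained were Lpin1 in F344 and WKY (adjusted p = 0.0306 and 0.0476, limma). Counts of listed genes without 1 array of a strain were added after seeing the data. With 2 arrays per strain, small differences were detected less often than large ones in the simulated BN contrast.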
